A study of Mus musculus with 16 samples.

Results

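The C2C12-Galgt2 line, a mouse muscle cell line that stably carries the glycosyltransferase gene Galgt2, was compared with C2C12, the line it was made from. The members were chosen by title alone: the 4 cell line arrays of the 16 in the series, 2 of C2C12-Galgt2 and 2 of C2C12. Each line was profiled once as undifferentiated myoblasts and once after differentiation into myotubes, so the 4 conditions have 1 array each. The remaining 12 arrays hold gastrocnemius muscle of mice described as male and aged 2 months, with 2 arrays for each of 6 conditions. Those used below are C57BL/6J mice transgenic for Galgt2 against wild-type C57BL/6J mice, and dystrophin-deficient mdx muscle (C57BL/10J) treated with an adeno-associated virus carrying Galgt2 (AAV-Galgt2) against the contralateral mdx muscle treated with phosphate-buffered saline (PBS). The transfected plasmid, the promoters that drive Galgt2, the passage numbers, the time in differentiation medium and whether C2C12-Galgt2 is a single clone are not given in the sources used here. The 2 arrays of a line are different stages of that line and not replicate cultures.

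Galgt2 is the older name of B4galnt2, an enzyme that adds N-acetylgalactosamine to sialylated glycans and makes the cytotoxic T cell carbohydrate. In adult skeletal muscle this carbohydrate is concentrated at the neuromuscular junction, and when the enzyme is overexpressed it modifies alpha-dystroglycan, the receptor that ties the muscle membrane to laminin. C2C12 cells divide as myoblasts and, when growth factors are withdrawn, leave the cell cycle, fuse and switch on the contractile genes.

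Levels are log2 intensities of Affymetrix probe sets. Each of 18194 genes was read on its brightest single-gene probe set over the 4 cell line arrays, and the median gene was at 7.04. Median intensities were 57.2 and 60.4 in C2C12-Galgt2 myoblasts and myotubes, and 60.1 and 59.4 in the arrays labelled C2C12 myoblasts and myotubes. Arrays have no read depth, and their number limits the precision.

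The stage labels of the untransfected pair went against the contractile genes, whereas those of C2C12-Galgt2 did not. Of 52 contractile genes, 50 were higher in C2C12-Galgt2 myotubes than in C2C12-Galgt2 myoblasts, 27 of them at least 2-fold, with a median log2 difference of 1.04. In the untransfected pair, 50 of the 52 were higher in the array labelled myoblasts than in the array labelled myotubes, 35 of them at least 2-fold, and the median of labelled myotubes minus labelled myoblasts was -1.57. Myh8, the perinatal myosin heavy chain, was at 4.96 and 9.60 in C2C12-Galgt2 myoblasts and myotubes, against 10.06 and 5.94 in labelled C2C12 myoblasts and myotubes. The high arrays were therefore the C2C12-Galgt2 myotubes and the array labelled C2C12 myoblasts. These arrays also formed the closest pair of the 4, at Pearson's r = 0.990 over all genes, with 579 genes at least 2-fold apart. The other pairs between the lines lay between 0.972 and 0.981. Whether samples were exchanged was not tested, so the arrays are called by their labels throughout, and the differences below use both arrays of a line.

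**Figure D1:**
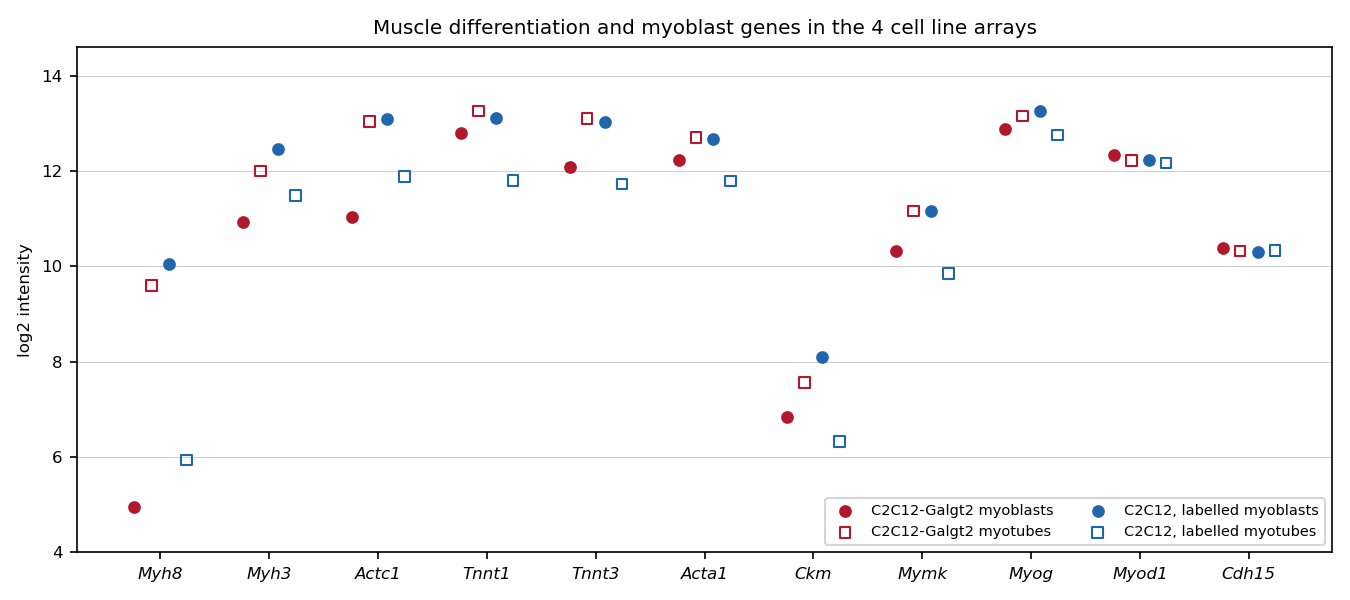
Log2 intensity (vertical axis) of muscle differentiation genes and of the myoblast genes Myod1 and Cdh15 in the 4 cell line arrays, 1 point per array, with filled circles for labelled myoblasts and open squares for labelled myotubes. Myh8 is at 9.60 in C2C12-Galgt2 myotubes and at 10.06 in the array labelled C2C12 myoblasts, above 4.96 and 5.94 in the other arrays.

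Myogenic genes differed in both directions between the lines, with no member 2-fold apart. Myod1, the transcription factor that commits cells to muscle, was at 12.33 and 12.22 in C2C12-Galgt2 myoblasts and myotubes, against 12.23 and 12.17 in labelled C2C12 myoblasts and myotubes. Cdh15, the cadherin of muscle precursors, was at 10.38 and 10.32 in the C2C12-Galgt2 arrays and at 10.29 and 10.34 in the C2C12 arrays. Mef2c, a MADS-box factor of differentiating muscle, was at 8.35 and 12.75 in the C2C12-Galgt2 arrays and at 13.02 and 11.06 in the C2C12 arrays, so the lines overlapped with a difference of -1.49. Myf6, a myogenic factor of late differentiation, was dim in all 4 arrays and differed by -1.16 without overlap. Over 34 measured myogenic regulators and fusion genes the median difference was 0.03. The contractile list had a line median of 0.13 with no member 2-fold apart. Its median was -1.21 between the arrays labelled myoblasts and 1.499 between those labelled myotubes. In the other pairs it was 0.01 between C2C12-Galgt2 myotubes and labelled C2C12 myoblasts and 0.29 between C2C12-Galgt2 myoblasts and labelled C2C12 myotubes.

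A gene was counted as 2-fold apart when the nearest arrays of the 2 lines differed by at least 2-fold, a rule that gives the same answer if the stage labels of either line are exchanged. C2C12-Galgt2 was higher for 27 genes and lower for 41, which are 0.148% and 0.225% of all genes (0.374% in both directions). Arrays of the 2 lines did not overlap for 3557 genes higher and 1852 genes lower in C2C12-Galgt2, or 19.6% and 10.2% of genes (29.7% in both directions). Of the 34 myogenic genes 3 were higher and 6 lower without overlap, and of the 52 contractile genes 1 was higher and 0 lower, against that 29.7%. The median difference over all genes was 0.06 with an SD of 0.386. Just inside the threshold were Tspan32, at 2.00-fold, and Ercc6l, at 2.01-fold, and just outside were Bub1 and Hs3st1, both at 1.99-fold or more but under 2. The formal test, limma with Benjamini-Hochberg adjustment over all genes, called 0 genes (0.0%), with 642 at an unadjusted p under 0.05. The smallest adjusted p was 0.0861. With line as its only term, the test weighs the line difference against the spread between the 2 arrays of a line. Because those arrays are different stages, the p-values and SEs of the line differences include the stage difference and do not measure replicate spread. The counts and values below are therefore descriptions of these 4 arrays.

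The transfected gene itself was high in both C2C12-Galgt2 arrays. B4galnt2 was at 9.76 and 10.82 in C2C12-Galgt2 myoblasts and myotubes, against 4.58 and 4.81 in labelled C2C12 myoblasts and myotubes. The lines did not overlap (log2 difference 5.59, SE 0.405, limma adjusted p = 0.503). This rested on 1 of its 4 probe sets. The other 3 lay between 3.61 and 5.16 in all 4 arrays, below the median gene, and did not separate the lines by more than 0.09. The C2C12 readings of the brightest probe set lay in that same dim range, so no fold is given.

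Mycn, which encodes N-myc, a MYC family transcription factor of growing and dividing precursor cells, had the largest measured log2 difference of all genes. It was at 12.69 and 13.15 in C2C12-Galgt2 myoblasts and myotubes, against 4.67 and 4.13 in labelled C2C12 myoblasts and myotubes. The lines did not overlap (log2 difference 8.52, SE 0.291, limma adjusted p = 0.0861). The C2C12 readings were as dim as those of B4galnt2, so the size of the difference is uncertain and is not ranked against it. As with B4galnt2, a single probe set carried it. The second Mycn probe set was at 6.20 and 6.23 in C2C12-Galgt2 myoblasts and myotubes and at 6.21 and 6.40 in the C2C12 arrays. The third was at 4.01 and 3.50 in C2C12-Galgt2 myoblasts and myotubes and at 3.46 and 3.91 in the C2C12 arrays. Neither of these separated the lines, and which part of the transcript each probe set reads is not given in the sources used here.

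**Figure D2:**
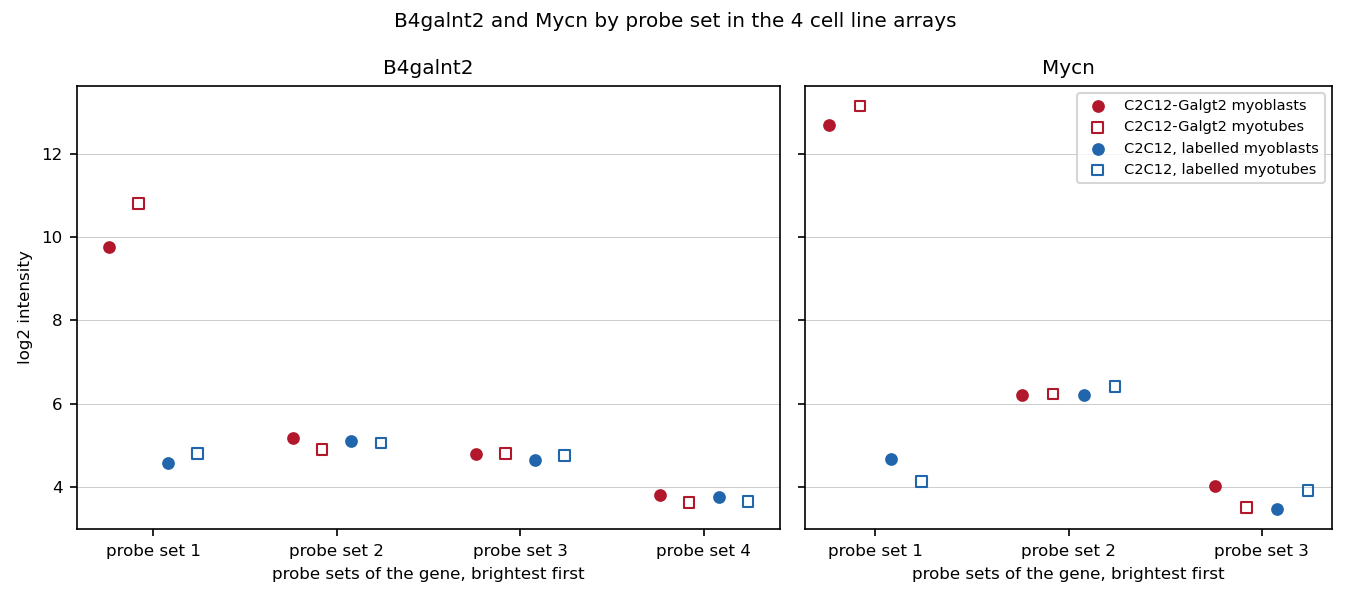
Log2 intensity (vertical axis) of every probe set of B4galnt2 and Mycn in the 4 cell line arrays, 1 point per array, with probe sets in order of brightness. The brightest probe set of each gene separates the lines, by 5.59 for B4galnt2 and 8.52 for Mycn, and the others differ by at most 0.09.

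The genes beside Mycn and the rest of its family showed far smaller differences. Its chromosomal neighbours were Ddx1, an RNA helicase, which overlapped between the lines and differed by 0.06, and Nbas, which differed by 0.42 without overlap. Myc was at 7.37 and 6.78 in C2C12-Galgt2 myoblasts and myotubes, against 6.89 and 7.27 in labelled C2C12 myoblasts and myotubes, so the lines overlapped. Mycl, the third family member, was at 10.14 and 9.02 in C2C12-Galgt2 myoblasts and myotubes, against 8.27 and 8.87 in the C2C12 arrays, a difference of 1.01 without overlap. Max, the partner that all MYC proteins need for DNA binding, differed by -0.16. Among 35 growth genes known as MYC targets none was 2-fold apart, and the median difference was 0.08, beside 0.06 over all genes. Arrays did not overlap for 8 higher and 3 lower members, beside 19.6% and 10.2% of all genes. The largest differences were 0.56 for Shmt2 and 0.49 for Mybbp1a, both without overlap. Odc1, the first enzyme of polyamine synthesis, differed by 0.28, and Ncl, nucleolin, by 0.02.

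Of 26 measured transferases related to it, B4galnt2 was the only one 2-fold apart, and the list's median was 0.05. Arrays did not overlap for 7 higher and 5 lower members, beside 19.6% and 10.2% of all genes. B3galt1, a galactosyltransferase, was higher in C2C12-Galgt2 by 1.37 without overlap. Of 18 sialyltransferases 3 were higher and 4 lower without overlap, beside the same shares of all genes, and 1 was 2-fold apart. This was St8sia4, which builds polysialic acid chains, at 10.72 and 8.55 in C2C12-Galgt2 myoblasts and myotubes, against 7.33 and 6.31 in labelled C2C12 myoblasts and myotubes (log2 difference 2.82, SE 0.839). St8sia2, the other polysialyltransferase, was at 9.13 and 9.36 in C2C12-Galgt2 myoblasts and myotubes, against 8.68 and 6.96 in the C2C12 arrays. Both enzymes were thus higher in every C2C12-Galgt2 array than in any C2C12 array. Of 13 genes of dystroglycan O-mannosylation none was 2-fold apart, and the median was 0.13.

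None of 19 genes of the dystrophin-glycoprotein complex, which holds the dystroglycan that Galgt2 modifies, was 2-fold apart. Their median was 0.02, and 2 were higher and 2 lower without overlap, beside 19.6% and 10.2% of all genes. Dmd, dystrophin, was at 4.60 and 8.91 in C2C12-Galgt2 myoblasts and myotubes, against 8.95 and 6.18 in labelled C2C12 myoblasts and myotubes, with overlap. Dag1, which encodes dystroglycan, was at 12.62 and 12.87 in C2C12-Galgt2 myoblasts and myotubes, against 12.92 and 12.33 in labelled C2C12 myoblasts and myotubes. Utrn, utrophin, lay between 12.92 and 12.99 in all 4 arrays. Nos1, the neuronal nitric oxide synthase of the muscle membrane, was at 9.24 and 9.50 in C2C12-Galgt2 myoblasts and myotubes, against 8.58 and 5.98 in the C2C12 arrays, a difference of 2.09 without overlap. Among 14 laminins, agrin, perlecan and nidogens none was 2-fold apart. The laminin alpha chain gene Lama1 was at 6.69 and 6.51 in C2C12-Galgt2 myoblasts and myotubes, against 5.64 and 5.37 in the C2C12 arrays. Lama2, the main laminin alpha chain of the muscle basal lamina, was at 10.10 and 9.88 in C2C12-Galgt2 myoblasts and myotubes, against 9.28 and 9.52 in the C2C12 arrays. Both were higher in C2C12-Galgt2 without overlap, by 1.09 and 0.59. The 20 neuromuscular junction genes had a median of 0.01 and none 2-fold apart.

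The remaining genes that were highest in C2C12-Galgt2 encode secreted proteins, receptors, adhesion proteins and enzymes of no single list. Serpinb2, a plasminogen activator inhibitor, was at 7.29 and 7.10 in C2C12-Galgt2 myoblasts and myotubes, against 3.52 and 3.67 in labelled C2C12 myoblasts and myotubes (log2 difference 3.60, SE 0.177, limma adjusted p = 0.201). It was read on its only probe set, and its C2C12 readings were dimmer than those of B4galnt2, so the size of its difference is uncertain. Cdh10, a cadherin of neural tissue, was at 7.99 and 8.39 in C2C12-Galgt2 myoblasts and myotubes, against 5.46 and 4.22 in the C2C12 arrays. It was the 1 gene 2-fold apart among 29 cadherins and adhesion molecules. Isl1, a LIM-homeodomain transcription factor, was at 9.12 and 8.92 in C2C12-Galgt2 myoblasts and myotubes, against 6.58 and 6.53 in the C2C12 arrays (log2 difference 2.47, SE 0.173, limma adjusted p = 0.503). For Serpinb2 and Isl1 the arrays within a line lay close together beside the gap between the lines, while the C2C12 arrays of Cdh10 lay further apart. Dpyd, which starts the breakdown of pyrimidines, was at 9.79 in C2C12-Galgt2 myoblasts but 6.56 in C2C12-Galgt2 myotubes, against 4.62 and 5.37 in the C2C12 arrays, so most of its difference of 3.18 came from 1 array.

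Receptors and ligands of blood cell signalling were among the higher genes. Csf2rb, the common beta receptor chain for interleukin-3, interleukin-5 and GM-CSF, was at 9.71 and 9.23 in C2C12-Galgt2 myoblasts and myotubes, against 6.34 and 7.59 in labelled C2C12 myoblasts and myotubes. Csf2rb2, its neighbouring and near-identical copy, was at 7.76 and 8.47 in C2C12-Galgt2 myoblasts and myotubes, against 5.08 and 5.43 in the C2C12 arrays. Because probes of such copies can bind both transcripts, these are not 2 independent observations. Of 25 chemokines and cytokines 2 were 2-fold apart, both higher, while the list's median was 0.08. The chemokine Ccl8 was at 10.19 and 10.69 in C2C12-Galgt2 myoblasts and myotubes, against 8.53 and 7.57 in the C2C12 arrays, and Ccl7 differed by 1.33. Markers of white blood cells stayed dim in both lines: 1 of 11 was above the median gene, and Ptprc, the pan-leukocyte antigen, lay between 4.17 and 5.29. The log2 of the summed intensity of that list was 8.66 and 8.76 in C2C12-Galgt2 myoblasts and myotubes, against 8.40 and 8.67 in the C2C12 arrays.

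Clu, Slc6a2, 4930550L24Rik and Ift74 were also among the 15 highest. Clu, the secreted chaperone clusterin, was at 8.85 and 7.77 in C2C12-Galgt2 myoblasts and myotubes, against 6.46 and 5.98 in labelled C2C12 myoblasts and myotubes. Slc6a2, the noradrenaline transporter, was at 9.77 and 10.05 in C2C12-Galgt2 myoblasts and myotubes, against 7.12 and 8.51 in the C2C12 arrays. The uncharacterised 4930550L24Rik was at 8.57 and 8.94 in C2C12-Galgt2 myoblasts and myotubes, against 6.27 and 6.24 in the C2C12 arrays. Ift74 lies in a group of neighbouring genes described further on. Abcb1a, a drug efflux pump, was at 6.84 and 6.85 in C2C12-Galgt2 myoblasts and myotubes, against 5.13 and 5.07 in the C2C12 arrays, which is below the median gene in both lines.

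**Figure D3:**
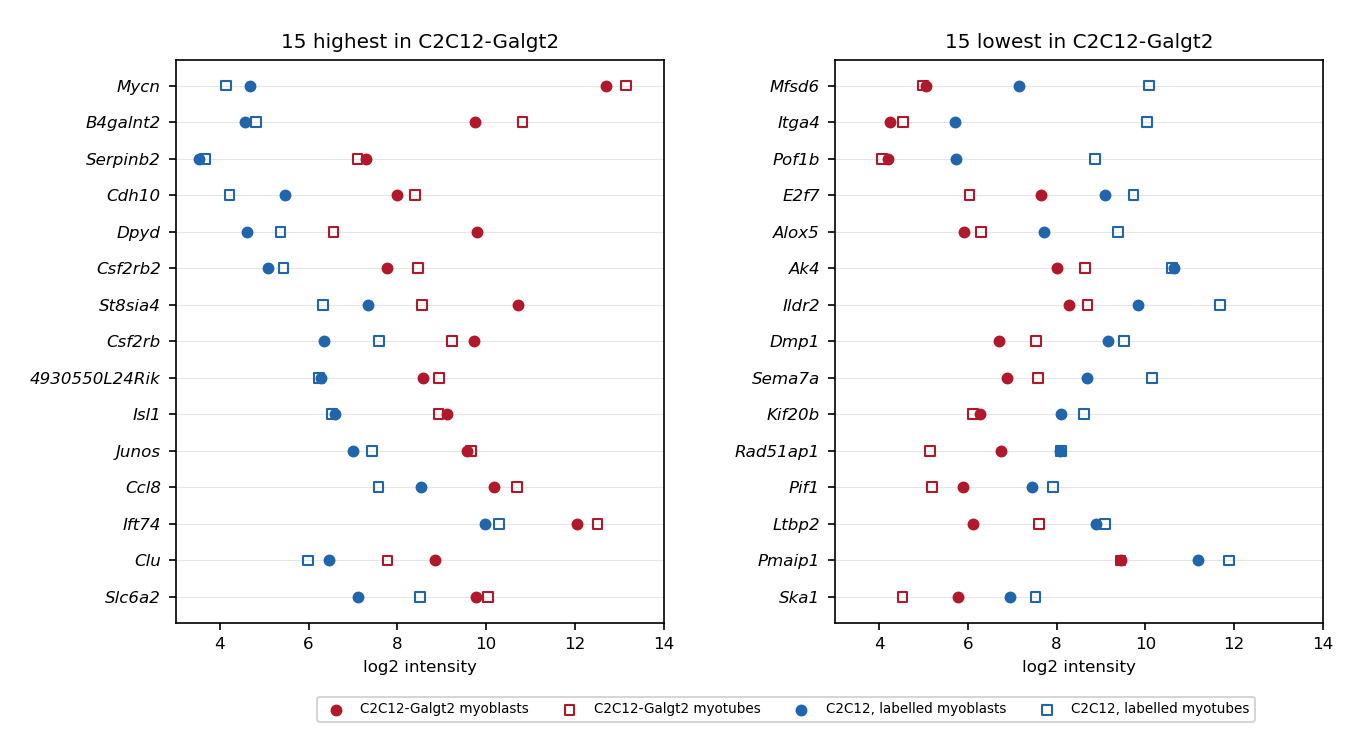
Log2 intensity (horizontal axis) of the 15 genes highest and the 15 lowest in C2C12-Galgt2 among those 2-fold apart and above the median gene, 1 point per array. The arrays of a line sit together for genes such as Isl1, while Mfsd6, Itga4 and Pof1b are far higher in the array labelled C2C12 myotubes than in any other.

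The lowest genes in C2C12-Galgt2 owed much of their difference to 1 array. Mfsd6, a transporter-like membrane protein, was at 5.06 and 4.99 in C2C12-Galgt2 myoblasts and myotubes, against 7.15 and 10.09 in labelled C2C12 myoblasts and myotubes. Itga4, the integrin alpha-4 chain that binds fibronectin and Vcam1, was at 4.26 and 4.54 in C2C12-Galgt2 myoblasts and myotubes, against 5.71 and 10.04 in the C2C12 arrays. Pof1b, an epithelial actin-binding protein, was at 4.21 and 4.06 in C2C12-Galgt2 myoblasts and myotubes, against 5.72 and 8.86 in the C2C12 arrays. In each the array labelled C2C12 myotubes stood far above the other C2C12 array. The standard error of the line difference was 1.02 for Mfsd6, 1.5 for Itga4 and 1.09 for Pof1b, beside 0.291 for Mycn. Of the other Itga4 probe sets, some overlapped between the lines and another was lower in C2C12-Galgt2 without overlap. Some neural genes that were dim elsewhere were also bright in the array labelled C2C12 myotubes. Gap43 was at 4.28 and 4.37 in C2C12-Galgt2 myoblasts and myotubes, against 4.03 and 9.24 in the C2C12 arrays. The 12 neural markers had a median of -0.42 between the lines, with 2 of 12 above the median gene, and a summed log2 intensity of 9.48 and 8.76 in C2C12-Galgt2 myoblasts and myotubes, against 9.20 and 12.5 in the C2C12 arrays.

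Ak4, Pmaip1, Dmp1 and Ltbp2 were lower in C2C12-Galgt2 against both C2C12 arrays, which lay within 1 log2 unit of each other. Ak4, a mitochondrial adenylate kinase, was at 8.01 and 8.63 in C2C12-Galgt2 myoblasts and myotubes, against 10.64 and 10.60 in labelled C2C12 myoblasts and myotubes (4.90-fold lower). Pmaip1, the pro-apoptotic protein Noxa, was at 9.46 and 9.44 in C2C12-Galgt2 myoblasts and myotubes, against 11.19 and 11.89 in the C2C12 arrays. It was the 1 gene 2-fold apart among 21 cyclin-dependent kinase inhibitors and p53 targets. Cdkn1a, the p21 inhibitor of the same list, overlapped between the lines and differed by 0.11. Dmp1, a matrix protein of mineralised tissue, was at 6.69 and 7.53 in C2C12-Galgt2 myoblasts and myotubes, against 9.16 and 9.52 in the C2C12 arrays. Ltbp2, a latent TGF-beta binding protein of the matrix, was at 6.12 and 7.61 in C2C12-Galgt2 myoblasts and myotubes, against 8.90 and 9.09 in the C2C12 arrays. Alox5, the lipoxygenase that starts leukotriene synthesis, Ildr2, an immunoglobulin-like membrane protein, and Sema7a, a membrane-anchored semaphorin, differed by -2.45, -2.27 and -2.19. For these the array labelled C2C12 myotubes was higher than the other C2C12 array, at 9.37 against 7.72 for Alox5.

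Genes of dividing cells were lower in C2C12-Galgt2 as a group. Of 37 measured cell cycle genes 36 had a difference below 0, and 27 did not overlap and were lower, beside 10.2% of all genes. The list's median was -1.16, beside 0.06 over all genes. None was 2-fold apart by the nearest arrays, but 20 were at least 2-fold lower in the line means. The differences ran from -2.02 for Bub1, a spindle checkpoint kinase, to 0.22 for Rrm1, a ribonucleotide reductase subunit. Bub1 was at 7.83 and 6.75 in C2C12-Galgt2 myoblasts and myotubes, against 8.82 and 9.79 in labelled C2C12 myoblasts and myotubes. Aurkb, a mitotic kinase, was at 7.29 and 5.73 in C2C12-Galgt2 myoblasts and myotubes, against 8.25 and 8.77 in the C2C12 arrays. Mki67, the Ki-67 proliferation antigen, was at 8.69 and 7.79 in C2C12-Galgt2 myoblasts and myotubes, against 9.60 and 10.08 in the C2C12 arrays. For all 3 genes the C2C12-Galgt2 myotubes were lowest and the array labelled C2C12 myotubes highest.

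The size of the cell cycle difference depended on which arrays were set against each other. The list's median was -0.28 between the arrays labelled myoblasts and -1.94 between those labelled myotubes. It was -1.06 both between C2C12-Galgt2 myotubes and labelled C2C12 myoblasts and between C2C12-Galgt2 myoblasts and labelled C2C12 myotubes, the pairs with like levels of contractile genes. Within the lines the median of labelled myotubes minus labelled myoblasts was -0.94 in C2C12-Galgt2 and 0.65 in C2C12. Cells leave the cycle when they differentiate, and the part of stage in the line difference was not tested.

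**Figure D4:**
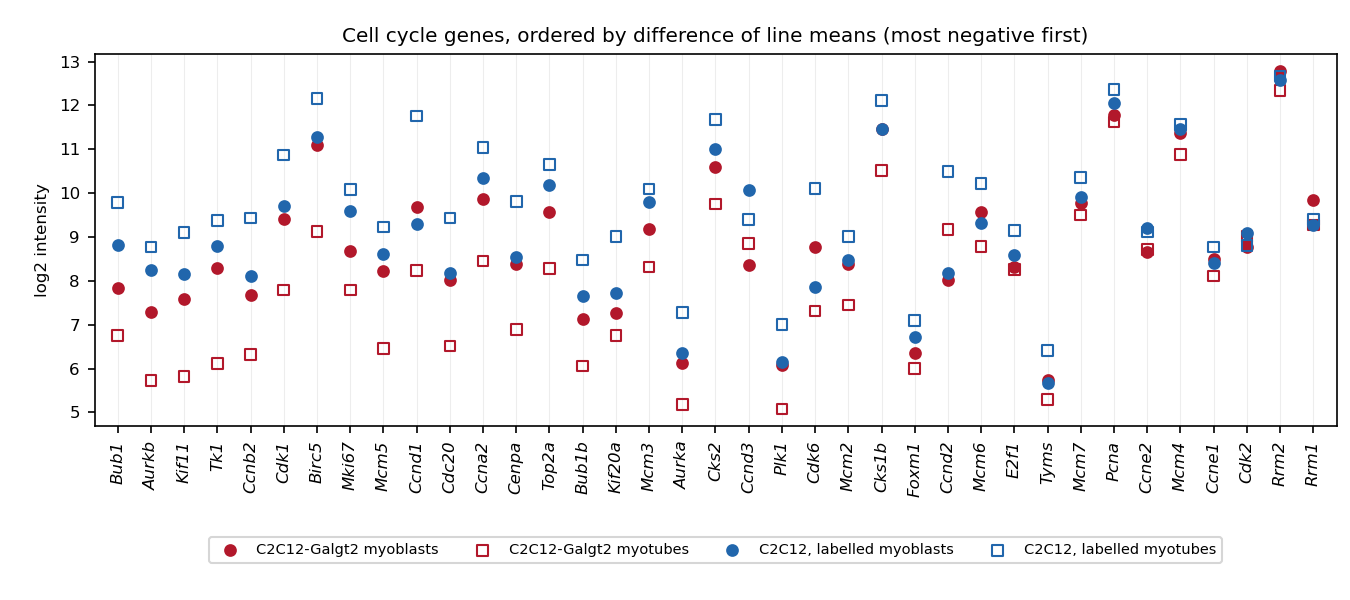
Log2 intensity (vertical axis) of 37 cell cycle genes in the 4 cell line arrays, 1 point per array, ordered from the most negative line difference (Bub1, -2.02) to the highest (Rrm1, 0.22). For most genes the C2C12-Galgt2 myotubes are lowest and the array labelled C2C12 myotubes highest, with the other arrays between them.

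Among the 41 genes that were 2-fold apart and lower in C2C12-Galgt2, some have known roles in DNA replication, repair or mitosis and are not in the cell cycle list. The examples here were partly picked after their values were seen. E2f7, an atypical E2F factor that represses genes of S phase, was at 7.64 and 6.03 in C2C12-Galgt2 myoblasts and myotubes, against 9.08 and 9.73 in labelled C2C12 myoblasts and myotubes (5.93-fold lower). Hells, a chromatin remodelling helicase of dividing cells, was at 8.62 and 7.77 in C2C12-Galgt2 myoblasts and myotubes, against 9.87 and 10.10 in the C2C12 arrays. Its 2 other probe sets were also lower in both C2C12-Galgt2 arrays than in either C2C12 array. Kif20b, a kinesin of cytokinesis, Rad51ap1, a factor of homologous recombination, Pif1, a DNA helicase, and Ska1, a kinetochore protein, differed by -2.17, -2.15, -2.14 and -2.08. Lig1, the DNA ligase of replication, differed by -1.42. Ercc6l, a helicase of mitosis, Cenpi, a centromere protein, Dscc1, which acts in sister chromatid cohesion, Fancb, of the Fanconi anaemia repair pathway, and Ncapg2, a condensin subunit, differed by -2.03, -1.93, -1.59, -1.41 and -1.40.

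Promoters of E2f7 and Hells, which were lower with the cell cycle genes, and of Mycn, which had the largest measured difference, are shown because each holds a match to the E2F motif spellings TTTCCCGC or TTTGGCGC. Lig1, Ift74, Plaa and B4galnt2 were also searched in the 250 bases before their starts and held no match to either spelling. The sequences shown are the 250 bases before the RefSeq transcription start in GRCm38.p6, 5′ to 3′ on the gene's strand, with matches on either strand in capitals. They lie at chr12:12941837-12942086 on the minus strand for Mycn, chr10:110745189-110745438 on the plus strand for E2f7 and chr19:38930740-38930989 on the plus strand for Hells.
Mycn: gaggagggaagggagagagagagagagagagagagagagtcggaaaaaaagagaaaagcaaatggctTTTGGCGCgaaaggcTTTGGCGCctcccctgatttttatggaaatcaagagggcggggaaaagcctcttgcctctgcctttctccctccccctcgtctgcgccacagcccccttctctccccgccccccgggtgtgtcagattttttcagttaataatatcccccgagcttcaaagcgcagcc
E2f7: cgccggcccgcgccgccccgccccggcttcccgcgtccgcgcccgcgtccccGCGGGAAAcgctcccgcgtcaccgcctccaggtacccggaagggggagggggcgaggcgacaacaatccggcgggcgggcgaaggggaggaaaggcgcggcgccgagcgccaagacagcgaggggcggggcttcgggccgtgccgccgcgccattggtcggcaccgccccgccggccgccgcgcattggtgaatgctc
Hells: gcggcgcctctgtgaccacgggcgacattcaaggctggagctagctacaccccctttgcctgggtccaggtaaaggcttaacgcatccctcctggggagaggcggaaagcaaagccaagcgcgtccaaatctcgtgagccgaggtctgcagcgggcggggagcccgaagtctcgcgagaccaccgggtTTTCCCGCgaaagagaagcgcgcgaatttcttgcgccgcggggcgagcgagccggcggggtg

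Either spelling was found, on either strand, in a promoter of 5 of 29 cell cycle genes with a sequence (17.2%), of 3 of the 28 lower genes (10.7%) and of 1 of the 23 higher genes (4.35%), beside 2.77% of 14453 genes in all. This motif was added after the cell cycle values were known. The MYC motif CACGTG, which reads the same on both strands, was found for 8.70% of the higher genes, 17.9% of the lower genes, 6.90% of the cell cycle list and 10.2% of all genes. CAGCTG, an E-box that MyoD binds and that also reads the same on both strands, was found for 17.4% of the higher genes, 42.9% of the lower genes, 10.3% of the cell cycle list and 18.8% of all genes. The shares were counted over every promoter sequence of a gene, which holds 50 bases after the start besides the 250 before it. The stretches printed above hold only the 250 bases before the start. These motifs do not overlap one another in spelling, and a match describes the letters of the sequence searched only.

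Immediate early genes and genes of cholesterol synthesis also lay lower in C2C12-Galgt2. The 25 immediate early genes, which respond within minutes to growth factor signals, had a median of -0.43, with 11 lower and 1 higher without overlap, beside 10.2% and 19.6% of all genes. Their median lay between -0.50 and -0.35 in all 4 pairs of arrays between the lines. Egr2, a zinc-finger factor and the 1 member 2-fold apart, was at 10.21 and 9.89 in C2C12-Galgt2 myoblasts and myotubes, against 11.28 and 11.35 in labelled C2C12 myoblasts and myotubes. Jun went the other way and is described below. Of 18 genes of cholesterol synthesis 17 had a difference below 0 and the median was -0.37, and 4 were lower without overlap, beside 10.2% of all genes. Stard4, a carrier of cholesterol in the cytosol and the 1 member 2-fold apart, was at 9.45 and 9.43 in C2C12-Galgt2 myoblasts and myotubes, against 10.54 and 10.75 in the C2C12 arrays. That median ran from -0.88 between the arrays labelled myoblasts to 0.14 between those labelled myotubes.

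The unfolded protein and integrated stress response genes lay slightly higher. Of 24 measured 8 were higher without overlap and 0 lower, beside 19.6% and 10.2% of all genes, and the median was 0.22. Herpud1, which takes part in the disposal of misfolded proteins, was at 11.97 and 11.73 in C2C12-Galgt2 myoblasts and myotubes, against 11.05 and 10.83 in labelled C2C12 myoblasts and myotubes. None was 2-fold apart. The list's median was 0.58 between the arrays labelled myoblasts and -0.14 between those labelled myotubes, so its sign depended on the pair. The cell cycle, immediate early, cholesterol and neural lists were the 4 of 39 with a median at least 0.3 from 0. The other 35 had medians between -0.12 and 0.26.

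A run of neighbouring genes on chromosome 4 held 6 of the 27 higher genes. In the gene order of GRCm38.p6, the 9 measured genes from Caap1 to Junos were Caap1, Plaa, Ift74, Lrrc19, Tek, Eqtn, Mysm1, Jun and Junos. Of these 6 were 2-fold apart and 8 were higher without overlap, beside 0.148% and 19.6% of all genes. Ift74, a component of intraflagellar transport in cilia, was at 12.05 and 12.51 in C2C12-Galgt2 myoblasts and myotubes, against 9.97 and 10.28 in labelled C2C12 myoblasts and myotubes (4.46-fold). Plaa, a factor of ubiquitin-dependent protein sorting, was at 11.90 and 12.43 in C2C12-Galgt2 myoblasts and myotubes, against 10.86 and 10.40 in the C2C12 arrays. Mysm1, a histone H2A deubiquitinase, was at 8.95 and 9.64 in C2C12-Galgt2 myoblasts and myotubes, against 7.61 and 7.35 in the C2C12 arrays. These 3 were above the median gene in every array, Mysm1 only slightly so in C2C12, and all were higher in both C2C12-Galgt2 arrays. A dim probe set of Plaa and a dim probe set of Mysm1 overlapped between the lines. The other probe sets of both genes were higher in C2C12-Galgt2 without overlap.

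The other members of the group differed to varying extents. Tek, the angiopoietin receptor of endothelial cells, was at 6.95 and 7.74 in C2C12-Galgt2 myoblasts and myotubes, against 5.53 and 5.43 in labelled C2C12 myoblasts and myotubes. The endothelial genes Pecam1 and Cdh5 were below 5.10 in every array. Jun, a subunit of the AP-1 transcription factor, was at 12.55 and 12.76 in C2C12-Galgt2 myoblasts and myotubes, against 11.87 and 12.24 in the C2C12 arrays. Its second probe set was at 11.02 and 11.75 in C2C12-Galgt2 myoblasts and myotubes, against 9.42 and 10.01 in the C2C12 arrays. Junos, a transcript that neighbours Jun, differed by 2.40 and Caap1, a regulator of apoptosis, by 1.37. Lrrc19 and Eqtn, dim in all arrays, differed by 0.53 and 0.41.

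Genes on either side of the group showed smaller differences. Of the 20 genes that flank it, 10 on each side, 0 were 2-fold apart, and differences ran from -0.78 to 0.56. Arrays of the lines did not overlap for 4 of the 20, beside 29.7% of all genes. Tusc1 on one side differed by 0.56 and Fggy on the other by 0.17. Medians were taken over every window of 7 neighbouring genes, 18012 windows in all. They reached 1.82 in this group and lay between -0.77 and 0.81 elsewhere, the highest of those around Csf2rb. A window of the group held up to 5 genes 2-fold apart and higher, against at most 2 in any other. The group was singled out after these values were seen, and no test was made.

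**Figure D5:**
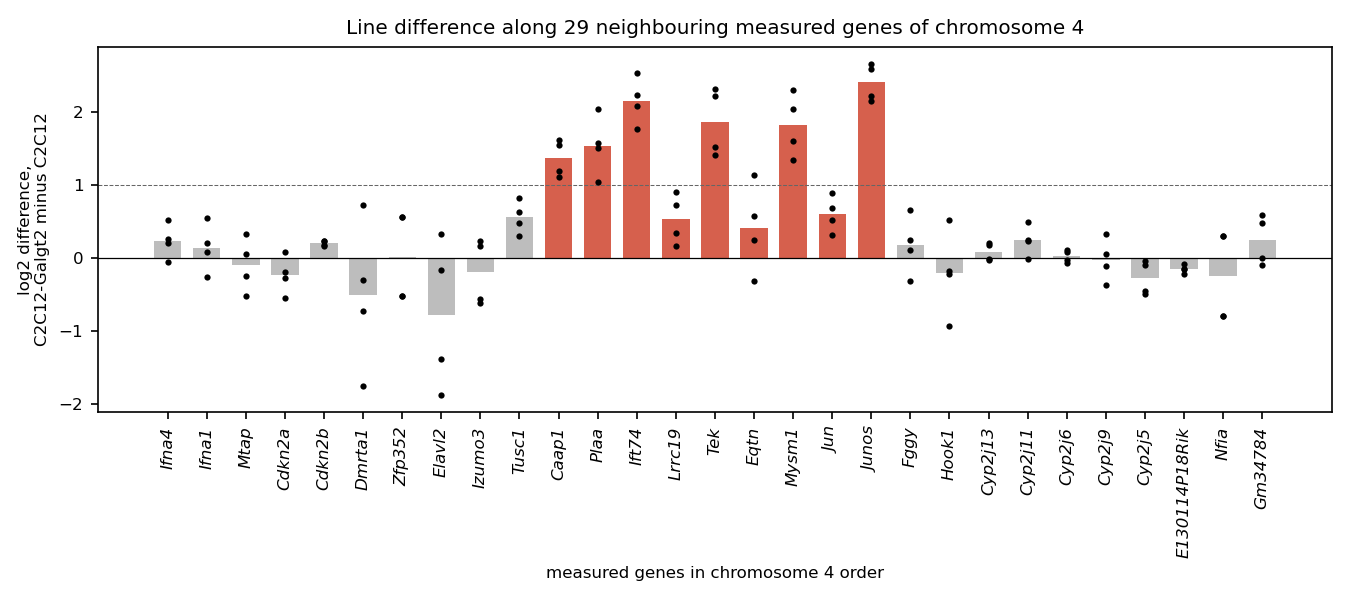
Log2 difference of C2C12-Galgt2 minus C2C12 (vertical axis) for neighbouring measured genes of chromosome 4 in gene order (horizontal axis), with bars for the difference of line means, black dots for the 4 pairs of arrays and a dashed line at 2-fold. The red bars from Caap1 to Junos reach 2.40, while the 20 flanking grey bars lie between -0.78 and 0.56.

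Where a gene had several probe sets, the bright ones gave the same direction. Of the 68 genes 2-fold apart, 24 had 1 probe set, and 27 had others of which none was above the median gene, Mycn and B4galnt2 among them. For the remaining 17, every other probe set above the median was shifted in the same direction without overlap. A probe set counted as above the median when the higher of its line means was. Some passed only through the line where they were high, such as an Ak4 probe set at 4.96 and 5.62 in the C2C12-Galgt2 arrays, against 7.97 and 7.88. Flat dim probe sets were left out, so this agreement is not independent support. Of the 27 higher and 41 lower genes, 23 and 37 had a higher line mean above the median gene, and 4 in each direction had both line means below it.

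Little of the line difference was found in muscle that carries more Galgt2. B4galnt2 itself was at 13.17 and 13.32 in Galgt2 transgenic muscle, against 4.61 and 4.94 in wild-type muscle (log2 difference 8.47, SE 0.903, limma adjusted p = 0.000956). It was at 10.54 and 10.56 in AAV-Galgt2 muscle, against 5.27 and 4.26 in PBS muscle (log2 difference 5.78, SE 0.903, limma adjusted p = 0.233, unadjusted p = 6.4e-05). The groups did not overlap in either comparison. The SE was estimated from all 6 muscle groups, and in the mdx group outside these comparisons B4galnt2 was at 3.86 and 7.78. Mycn was at 3.66 and 3.96 in transgenic muscle, against 3.95 and 4.38 in wild-type muscle, and at 2.94 and 2.81 in AAV-Galgt2 muscle, against 2.91 and 3.34 in PBS muscle. Its difference was thus -0.36 and -0.25 in muscle (limma adjusted p = 0.664 and 0.892), on the probe set that differed by 8.52 between the lines.

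The test over all genes called 378 genes higher (2.08%) and 172 lower (0.945%) in transgenic than in wild-type muscle, 3.02% of genes together, by limma over the 12 muscle arrays. B4galnt2 was the only one of the 27 higher genes that it called. Of the 41 lower genes 4 were called, in both directions. Ereg, the EGF family ligand epiregulin, was at 6.12 and 6.07 in transgenic muscle, against 3.71 and 3.60 in wild-type muscle (limma adjusted p = 0.0267), but lower in C2C12-Galgt2 by 1.40. Lrrn1, a leucine-rich repeat membrane protein, was at 11.90 and 11.71 in transgenic muscle, against 10.34 and 10.55 in wild-type muscle (limma adjusted p = 0.00418), while its line difference was -1.38. Stard4 was at 7.69 and 7.63 in transgenic muscle, against 8.68 and 8.53 in wild-type muscle (limma adjusted p = 0.0367). Fgf5, a fibroblast growth factor, was at 3.16 and 2.96 in transgenic muscle, against 4.54 and 4.13 in wild-type muscle (limma adjusted p = 0.0143). Stard4 and Fgf5 were thus lower in both systems, and Ereg and Lrrn1 opposite. Fgf5 was dim in all of these muscle arrays and Ereg in wild-type muscle, so the size of their muscle differences is uncertain. The other Fgf5 probe set overlapped between the lines and differed by 0.01. The call of B4galnt2 held without each array in turn. Each of the other 4 calls was lost when 1 array was left out: Ereg and Stard4 without any 1 of the transgenic or wild-type arrays (adjusted p up to 0.16 and 0.225), Stard4 also without either AAV-Galgt2 array or with the replicate number as a block (0.0667 and 0.0756), Fgf5 without either transgenic array or wild-type replicate 1 (up to 0.136), and Lrrn1 without wild-type replicate 1 (0.0538).

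Across the genes 2-fold apart the muscle differences centred near 0. Their median was -0.04 for the 27 higher and 0.07 for the 41 lower genes in transgenic muscle, beside -0.05 over all genes. Transgenic and wild-type arrays did not overlap for 5 higher and 8 lower of the 27, and for 14 higher and 9 lower of the 41, beside 20.4% higher and 26.9% lower of all genes (47.4% in both directions). In AAV-Galgt2 muscle against PBS muscle limma called 0 genes (0.0%), with 1521 at an unadjusted p under 0.05, and the medians were -0.06 and -0.01, beside 0.03 over all genes. The cell cycle list, at -1.16 between the lines, had a median of 0.41 in transgenic muscle, with 2 genes called higher and 1 lower, and of 0.31 in AAV-Galgt2 muscle. In whole muscle fewer cells of a type and less RNA per cell cannot be told apart.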

How the data were processed

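RNA of 16 samples was amplified, biotin-labelled and hybridised to 1-colour Affymetrix mouse arrays. The deposited values are intensities per probe set, made with GCOS and RMA per the submitters' processing notes, which give no versions. Log2 was taken here of the authors' intensities, and no further normalization was done. Of 45101 probe sets 34958 had 1 gene symbol in the platform annotation, 932 had several and 9211 none; 1 with an empty cell was left out. For each gene the probe set brightest over the 4 cell line arrays was used, in muscle too.

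Members and lists were chosen with earlier results of these data known. Named genes are B4galnt2, Mycn, the 15 highest and 15 lowest among genes 2-fold apart and above the median level, and leading members of each list. Others, among them the genes of the chromosome 4 group, were picked after their values were seen. The line test was limma 3.58.1 in R 4.3.3 on 4 arrays with line as the only term, two-sided, Benjamini-Hochberg adjusted over 18194 genes, and called at 0.05. The muscle test fitted 6 group means to 12 arrays. Xist, the X inactivation transcript, was at 9.31 in Galgt2 transgenic mdx replicate 1 and between 3.87 and 5.40 in the other muscle arrays. The sex of that sample was not tested. Replicate numbers were checked as pairs: deviations correlated at 0.538 between transgenic and wild-type and -0.0523 between AAV-Galgt2 and PBS arrays. No label states that replicate muscles came from different animals, so the p-values cover only the spread between these samples, which may be technical. Gene order and promoters come from RefSeq (GRCm38.p6). The tests were tried on simulated data, and figures drawn with matplotlib 3.10.9 in Python 3.11.15.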

Additional observations from a re-analysis of the deposited data

Results flagged for a closer look

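A set of genes differed in opposite directions between the lines and between transgenic and wild-type muscle, with no overlap of arrays in either, and whether the 2 differences differ was not tested. There were 22 such genes among the 68 that were 2-fold apart, and 14 went the same way without overlap. Muscle arrays of 47.4% of all genes did not overlap in either direction. By direction, 14 of the 41 lower genes were higher in muscle, beside 20.4% of all genes. Of the 27 higher genes 8 were lower in muscle, beside 26.9%. Some members were dim in these muscle arrays, such as 4930550L24Rik, between 2.80 and 3.00, and Ska1, between 2.86 and 3.52. The values here are log2 differences of transgenic minus wild-type muscle. Among genes lower in C2C12-Galgt2, Ereg was at 2.43, Pmaip1 at 2.36, Ltbp2 at 1.40, Lrrn1 at 1.37, Egr2 at 1.09, Hells at 0.95 and Ncapg2 at 0.89. Smaller differences of this kind were those of Mamdc2 at 0.66, Lipg at 0.59, Tspan32 at 0.57, Lig1 at 0.42, Proser2 at 0.38, Ska1 at 0.36 and Pif1 at 0.29. Among genes higher in C2C12-Galgt2, Clu was at -1.003, Tek at -0.97, Slc6a2 at -0.77, Abcb1a at -0.64, Caap1 at -0.60, St8sia4 at -0.39, Mob3b at -0.22 and 4930550L24Rik at -0.12. Of the 22, limma called Ereg and Lrrn1 in muscle.

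The contractile list differed by 1.499 between the arrays labelled myotubes and by -1.21 between those labelled myoblasts. With 1 array per condition the difference between these values was not tested.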

How the results depend on the processing

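The counts of genes 2-fold apart, 27 higher and 41 lower, became 93 and 164 at 1.5-fold and 12 and 5 at 3-fold. They became 155 and 361 by line means, 488 and 647 from the arrays labelled myoblasts alone, and 821 and 864 from those labelled myotubes alone. With the mean of all probe sets 18 genes were higher, all of them among the 27, and 23 were lower, 20 of them among the 41. Against a single C2C12 array they were 111 and 158 (labelled myoblasts) and 195 and 436 (labelled myotubes), alternatives added after seeing the data. Fewer arrays or a looser rule widen such counts by construction. The line test called 1 gene, Mycn, with a limma trend (adjusted p = 0.0457) and 0 in the other 6 alternatives, including those that pair the lines by stage as labelled (380 genes at an unadjusted p under 0.05) and with the C2C12 labels exchanged (1263). The cell cycle median was -0.28 and -1.94 at the labelled stages. In transgenic muscle 550 genes passed, 413 with the replicate block and 176 to 630 leaving out 1 array, with 176 and 192 without wild-type replicates 1 and 2, and 279 and 292 without transgenic replicates 1 and 2. In AAV-Galgt2 muscle 0 passed, 0 with the replicate block and 0 to 164 leaving out 1 array, the 164 without PBS replicate 2.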
